A study of Mus musculus with 40 samples.

Results

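The 10 genes described here, Apoa1, Apoa2, Apoa4, Apoa5, Apob, Apoc1, Apoc2, Apoc3, Apoe and Apoh, encode apolipoproteins of the mouse. They were taken by name from a table of 55487 genes, in which 20297 genes, these 10 among them, passed a filter on low counts. Their mRNA was compared in liver between WT mice and littermates in which hepatocytes lack Nampt (HNKO). HNKO mice carried floxed Nampt alleles (Nampt fl/fl) together with Cre under the albumin promoter (Alb-Cre+/-), which acts in hepatocytes, and the WT littermates carried the floxed alleles without Cre. All mice were females of the C57BL/6JBomTac strain background and received a purified control diet (PD). Livers were taken at day 3, 6, 12 or 21 of feeding, which the sample labels give as an age and the study's methods as the time on the diet of adult mice, and the latter is used here. Each library was made from the whole liver of 1 mouse, so that every cell type of the liver contributed RNA. In the order of these days, WT groups had 5, 4, 5 and 5 mice, and HNKO groups had 5, 5, 6 and 3.

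Apolipoproteins are the protein part of the particles that carry lipid in blood. Apob forms the frame of very-low-density lipoprotein (VLDL) and stays with its particle, whereas the smaller apolipoproteins move between particles. Apoa1 and Apoa2 are the main proteins of high-density lipoprotein (HDL), Apoe is a ligand of hepatic lipoprotein receptors, and the C apolipoproteins and Apoa5 act on the lipolysis of triglyceride in plasma. Hepatocytes make most of these proteins, and macrophages also make Apoe. Apoh, or beta-2-glycoprotein I, binds anionic phospholipids.

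The 38 libraries used held 16151037 to 64181492 counts. A further 2 HNKO libraries of day 21, numbered 17 and 18, were marked as failing quality control and were left out, which is why that group had 3 mice. Except for 1 mouse of day 6, every HNKO library had less Nampt than the lowest WT library of its day, with log2 fold changes from -0.93 at day 3 to -0.69 at day 21, and the day 21 value did not pass the test (adjusted p = 0.161, edgeR). Libraries were numbered 1 to 21 and 22 to 41, each run of numbers going through all 4 days, and all 3 HNKO libraries used at day 21 came from the second run. What the numbering stands for is not given in the sources used here.

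The 10 genes were expressed at very different levels. Per kilobase of annotated exon, the median over the 19 WT libraries was highest for Apoa2, at 13.13 log2 CPM per kilobase, CPM being counts scaled to the size of each library, with a range of 12.73 to 13.68. Apoe followed with a median of 12.70, Apoa1 with 12.10 and Apoc1 with 11.82, and the ranges of neighbours in this order overlapped. Apoc3, Apoh and Apob formed a lower set on the same scale, with medians of 10.46, 10.31 and 10.30 and ranges that overlapped each other but not that of Apoc1. Apoa5 had a median of 8.51 and Apoa4 one of 7.46, also with overlapping ranges. Apoc2 stood far below, with a median of 1.58. The 10 genes together held 4.22% to 5.67% of all counts in the WT libraries and 3.85% to 5.24% in the HNKO libraries, and these ranges overlapped.

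The counts of Apoc2, the activator of lipoprotein lipase, could not be read as the level of its mRNA. Gm44805, annotated as a protein-coding gene, lies on the same strand and shares 646 exon bases with it, and 78.2% of the stretches of 51 bases in Apoc2 transcripts are also found in that gene. The median count of Apoc2 was 64 and that of Gm44805 was 36. Fragments that lie in both genes may be counted for neither. The HNKO and WT values of Apoc2 are therefore uncertain. On the opposite strand, Apoa4 shares 634 exon bases with Gm47528, Apoa5 shares 524 with Gm47544 and Apoh shares 30 with Prkca, and 60.7% of the stretches of Apoa4 and 16.2% of those of Apoa5 lie in other genes. The use of the strand in counting is not given in the sources used here. The median counts were 8348.5 for Apoa4 and 24487 for Apoa5, and whether shared fragments were lost from them was not tested.

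Of the 10 genes, Apoa2, Apoh, Apoc3, Apoc1 and Apoe were lower in HNKO over the mean of the 4 days, by log2 fold changes of -0.54 to -0.32, and none was higher. With scaling by total counts alone, the calls of Apoc3 (-0.13, adjusted p = 0.0713, edgeR) and Apoe (-0.18, adjusted p = 0.103, edgeR) were lost, and the means of Apoa2, Apoh and Apoc1 were -0.36, -0.21 and -0.19, all still called. At single days the difference passed the test at day 6 only, for Apoa2, Apoc3 and Apoh. Apoa1, Apob, Apoa4, Apoa5 and Apoc2 did not pass the test at any day or in the mean, although DESeq2 also called Apob in the mean (adjusted p = 0.04). All tests were edgeR's quasi-likelihood tests with adjustment over all 20297 genes, a gene being called at an adjusted p under 0.05. In the mean of the 4 days 17.3% of all tested genes were called lower and 19.2% higher, beside the 5 lower and 0 higher of the 10.

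Genes as abundant as these were lower in HNKO more often than other genes. Of the 447 tested genes with a median of 8 or more log2 CPM, a limit chosen after the data were seen, 56.2% were called lower in the mean of the 4 days and 6.26% higher, and their median log2 fold change was -0.26. The set includes 9 of the 10 apolipoprotein genes, of which 5 were called lower. The share of lower apolipoprotein genes was thus near that of all genes of such abundance. At day 6 the corresponding figures were 20.8% lower among the 447 genes and 3 lower among the 9, and 4.37% lower among all tested genes.

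**Figure D1:**
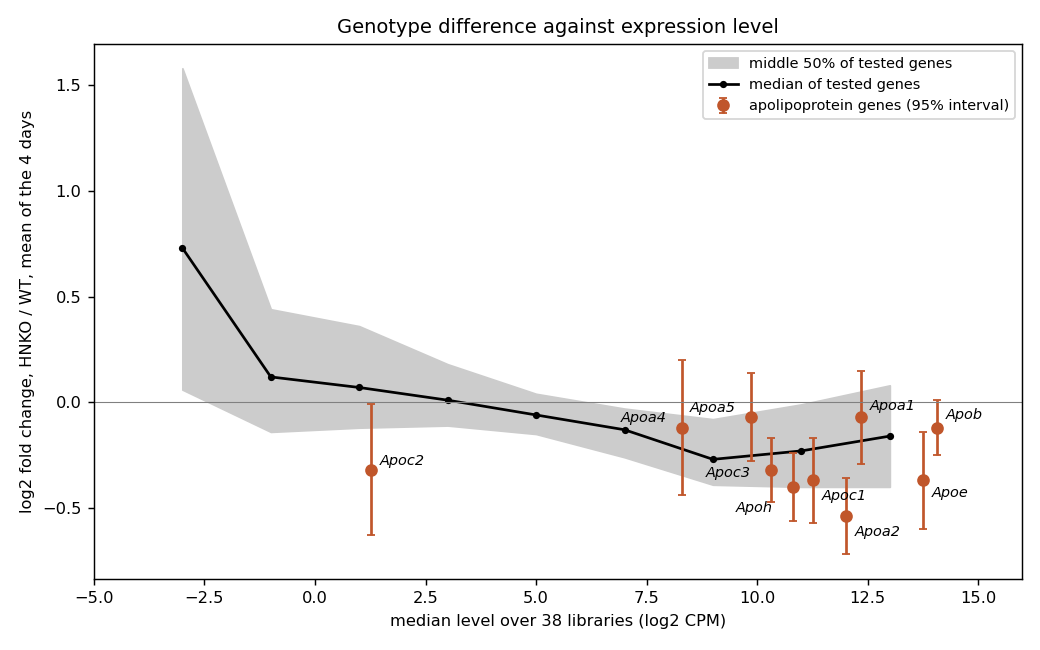
Log2 fold change of HNKO over WT, as the mean of the 4 days, against the median level over 38 libraries in log2 CPM. The black line is the median and the grey band the range from the lower to the upper quartile of all tested genes in steps of 2 log2 CPM that hold at least 20 genes, and orange points are the apolipoprotein genes with 95% intervals. The line lies below 0 at the levels of most of these genes, with a median of -0.27 between 8 and 10 log2 CPM, and the points of Apoa2 (-0.54) and Apoc2 (-0.32) lie below the band, with that of Apoh (-0.40) at its lower edge.

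The sequences upstream of 3 genes that were lower and of 2 that did not pass the test are printed so that they can be set side by side. They run from 5′ to 3′, in lower case, with matches to short motifs in capitals, and come from the promoter windows of RefSeq (GRCm38.p6), which held 8 of the 10 genes. Apoc1 and Apoc3 are named only. The windows end before the RefSeq start site and, for Apoa1 and Apob, before the GENCODE gene start that lies upstream of it, which leaves 200 and 221 bases. That of Apoh ends at the RefSeq start site, which lies inside the longer GENCODE gene (108343354 to 108414396 on chromosome 11).
Apoa2, chr1:171224804-171225053, strand +: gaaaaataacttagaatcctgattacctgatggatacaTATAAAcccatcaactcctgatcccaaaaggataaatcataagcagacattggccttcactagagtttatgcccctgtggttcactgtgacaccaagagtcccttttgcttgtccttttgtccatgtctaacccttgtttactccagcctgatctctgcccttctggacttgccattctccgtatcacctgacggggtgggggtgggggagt
Apoh, chr11:108395047-108395296, strand +: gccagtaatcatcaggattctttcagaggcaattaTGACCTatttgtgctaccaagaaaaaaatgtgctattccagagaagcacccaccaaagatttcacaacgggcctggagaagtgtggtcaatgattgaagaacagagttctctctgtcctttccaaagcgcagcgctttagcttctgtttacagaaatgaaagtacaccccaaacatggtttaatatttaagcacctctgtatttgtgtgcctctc
Apoe, chr7:19699189-19699438, strand -: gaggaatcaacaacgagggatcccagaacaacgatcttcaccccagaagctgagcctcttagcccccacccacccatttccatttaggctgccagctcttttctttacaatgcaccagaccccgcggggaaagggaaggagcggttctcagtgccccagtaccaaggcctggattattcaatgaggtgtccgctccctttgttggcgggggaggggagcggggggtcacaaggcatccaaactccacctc
Apoa1, chr9:46228380-46228579, strand +: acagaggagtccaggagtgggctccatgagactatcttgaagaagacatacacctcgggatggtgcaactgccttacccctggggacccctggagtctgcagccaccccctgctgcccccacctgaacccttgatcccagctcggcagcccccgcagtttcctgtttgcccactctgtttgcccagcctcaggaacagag
Apob, chr12:7977427-7977647, strand +: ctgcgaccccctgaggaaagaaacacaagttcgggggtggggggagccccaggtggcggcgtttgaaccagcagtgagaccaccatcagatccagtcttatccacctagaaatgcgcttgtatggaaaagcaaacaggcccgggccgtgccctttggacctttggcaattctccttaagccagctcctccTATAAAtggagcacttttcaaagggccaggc

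The motifs were sought on both strands. The TATA box (TATAAA) was found in 12.4% of 32851 RefSeq windows of 250 bases, the half-site of many nuclear receptors (AGGTCA) in 14%, the half-site of HNF1 (GTTAAT) in 6.43%, the E-box (CACGTG) in 6.02% and a core of the HNF4 site (CAAAGTCCA) in 0.384%. No 2 of these matches overlap in the windows printed. The capitals mark a match to the letters TATAAA in Apoa2 and Apob, which ends 207 and 55 bases before the start site. In Apoh they mark the letters of the nuclear receptor half-site on the opposite strand. Whether any of these matches acts as such a site was not tested. The windows of Apoe and Apoa1 held none of these letters. No motif was shared by the 3 lower genes printed, and this says nothing about the factors themselves.

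Apoa2, the second protein of HDL, had the largest difference of the 10 genes at day 6 and in the mean of the 4 days. At day 6 the WT libraries had 12.54, 12.79, 12.30 and 12.26 log2 CPM, and the HNKO libraries 12.22, 11.71, 11, 11.61 and 11.78. Every HNKO library was below every WT library. The log2 fold change was -0.77 ± 0.18 (SE), a level of 0.585 of that in WT (adjusted p = 0.00368, edgeR). When the day 6 groups were fitted alone, the adjusted p was 0.0761. At day 12 the WT libraries had 12.02 to 12.60 log2 CPM, with a median of 12.23, and the 6 HNKO libraries 11.62 to 11.94, with a median of 11.80. The groups did not overlap, but the log2 fold change of -0.48 ± 0.16 missed the threshold (adjusted p = 0.0564, edgeR).

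At day 21 the WT libraries had 12.04, 12.06, 11.84, 11.95 and 12.04 log2 CPM of Apoa2, and the HNKO libraries 11.14, 11.60 and 11.71. These groups also did not overlap, with a log2 fold change of -0.48 ± 0.20 (adjusted p = 0.176, edgeR). At day 3 HNKO library 4, at 12.20, lay within the WT range of 12.13 to 12.60, and the other HNKO libraries, at 11.24 to 11.99, lay below it. The log2 fold change at day 3 was -0.44 ± 0.17 (adjusted p = 0.119, edgeR). Among all tested genes, 4.68%, 2.14% and 6.7% were lower without overlap at days 6, 12 and 21. Over the mean of the 4 days Apoa2 fell by 31.4%, with a log2 fold change of -0.54 ± 0.09 (adjusted p = 1.16e-05, edgeR).

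Apoa1, the first protein of HDL and the activator of lecithin-cholesterol acyltransferase, did not pass the test at any day. At day 6 its WT libraries had 12.70, 12.41, 12.44 and 12.56 log2 CPM and its HNKO libraries 12.43, 12.61, 12.31, 12.41 and 12.15. The groups overlapped, and the log2 fold change was -0.14 ± 0.22 (adjusted p = 0.732, edgeR). In the mean of the 4 days it was -0.07, with a 95% interval of -0.29 to 0.15. The log2 ratio of Apoa2 to Apoa1 within a library, in CPM, had medians of -0.15 in WT and -0.79 in HNKO at day 6, and the HNKO range of -1.31 to -0.20 overlapped the WT range of -0.30 to 0.38.

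**Figure D2:**
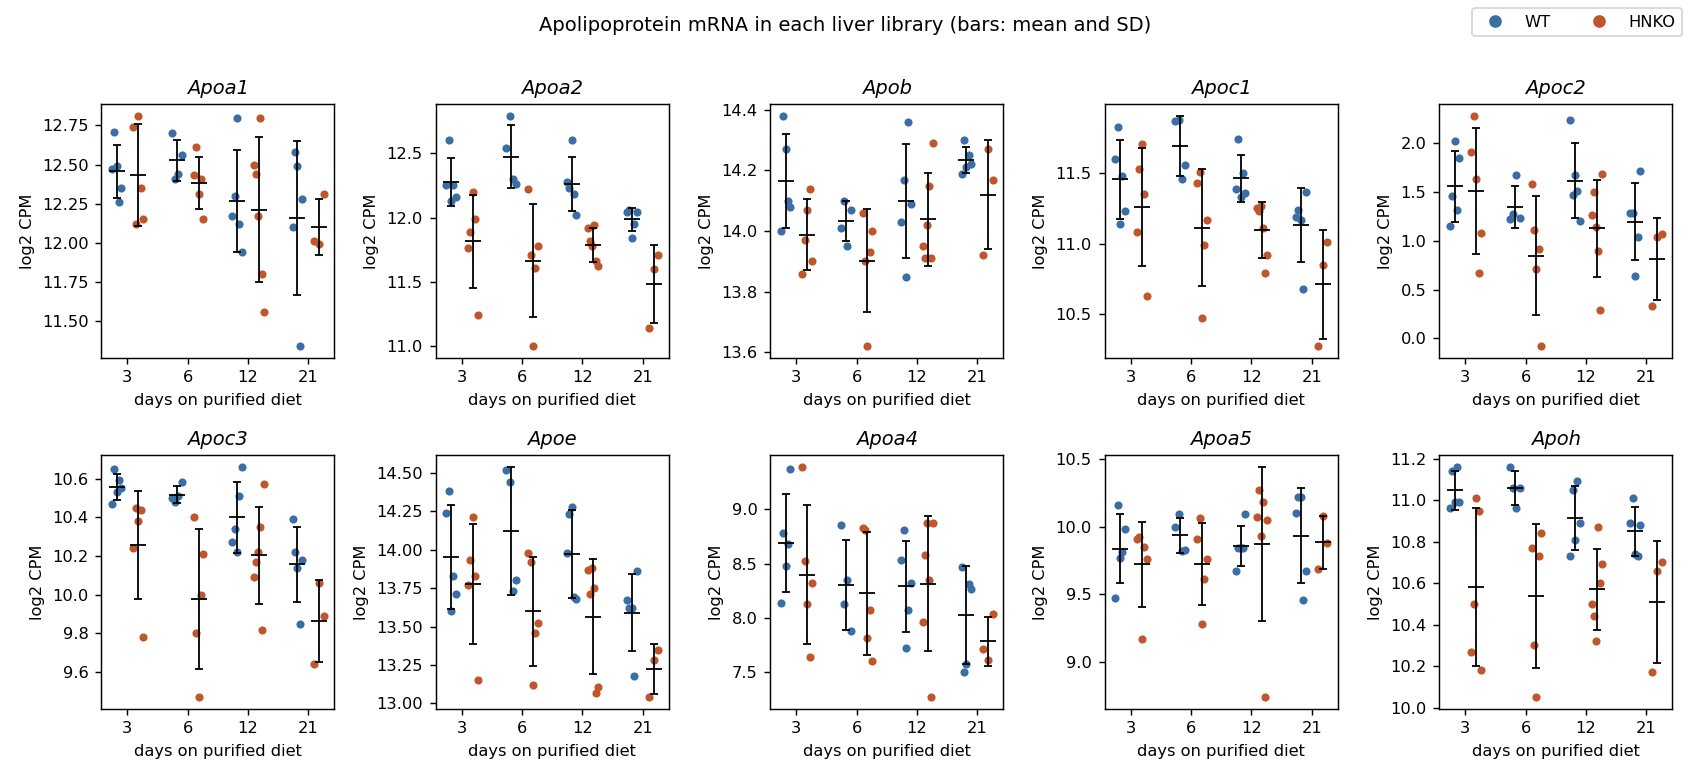
Log2 CPM of the 10 genes in each of 38 liver libraries by days on PD, with WT in blue and HNKO in orange, and the mean and SD in black. The vertical axes differ between genes and do not start at 0. For Apoa2 all HNKO points lie below the WT points at days 6, 12 and 21. Those of Apoe, called lower in the mean, and of Apoa1, Apob, Apoa4, Apoa5 and Apoc2 overlap at every day.

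Apoh was the next gene by the size of its difference in the mean of the 4 days. At day 6 its WT libraries had 11.16, 11.06, 10.96 and 11.06 log2 CPM and its HNKO libraries 10.77, 10.30, 10.05, 10.73 and 10.84. The groups did not overlap, and Apoh fell by 0.49 ± 0.16 on the log2 scale (adjusted p = 0.0328, edgeR). At day 21 its HNKO libraries, at 10.17, 10.66 and 10.70, again lay below all WT libraries, at 10.73 to 11.01, with a log2 fold change of -0.32 ± 0.17 that did not pass the test (adjusted p = 0.327, edgeR). At days 3 and 12 the log2 fold changes were -0.43 ± 0.15 and -0.34 ± 0.14 (adjusted p = 0.083 and 0.129, edgeR), and in each case 1 HNKO library reached into the WT range. The mean of the 4 days was -0.40 ± 0.08 (adjusted p = 0.000136, edgeR). Over the 4 days 17 of 19 HNKO libraries lay below every WT library of their day for Apoh, 18 of 19 for Apoa2, 14 for Apoc3, 13 for Apoc1 and 7 for Apoe. Of the genes not called, Apoc2 had 10, Apob 8, Apoa1 6, Apoa4 5 and Apoa5 5, and HNKO libraries above every WT library were found for Apoa4 (3), Apoa1 (2), Apoa5 (2) and Apoc2 (1). As many libraries or more below every WT library were counted for 0.409% of all tested genes at the count of Apoa2, 0.857% at that of Apoh, 3.37% at that of Apoc3, 4.67% at that of Apoc1 and 22.2% at that of Apoe. For the genes not called the share was 10.8% at the count of Apoc2 and 17.8% at that of Apob, both below that of Apoe. It was 27.8% for Apoa1 and 34.5% for Apoa4 and Apoa5.

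Apoc3, an inhibitor of lipoprotein lipase and of the uptake of remnant particles, was lower in HNKO at day 6. Its WT libraries had 10.50, 10.48, 10.51 and 10.58 log2 CPM, and its HNKO libraries had 10.40, 9.80, 9.47, 10 and 10.21. The groups did not overlap, and the log2 fold change was -0.50 ± 0.15 (adjusted p = 0.0253, edgeR). At day 3 the WT libraries had 10.47 to 10.65 and the HNKO libraries 9.78 to 10.45, also without overlap, as in 1.8% of all tested genes in this direction. The log2 fold change of -0.28 ± 0.14 did not pass the test (adjusted p = 0.264, edgeR). At days 12 and 21 the groups overlapped. The mean of the 4 days was -0.32 ± 0.08 (adjusted p = 0.00119, edgeR).

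The calls of Apoc3 and Apoh at day 6 lay near the threshold. Each was lost in 5 of the 9 fits that left out 1 library of that day, while the log2 fold changes stayed between -0.62 and -0.37 for Apoc3 and between -0.57 and -0.37 for Apoh. For Apoc3 these were the fits without WT library 8 or 28 or HNKO library 7, 29 or 30, with adjusted p of up to 0.14 (edgeR). For Apoh they were those without WT library 8, 10 or 28 or HNKO library 7 or 29, with adjusted p of up to 0.162 (edgeR). Apoa2 kept its call in all 9, with adjusted p of at most 0.0261 (edgeR). Both Apoc3 and Apoh also lost their day 6 calls with scaling by total counts, without the filter and with the day 6 groups fitted alone, with adjusted p of up to 0.118 and 0.122 (edgeR). Their log2 fold changes were -0.32 and -0.30 with total counts, and between -0.50 and -0.48 in the other 2 fits.

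Apoc3 lies on chromosome 9 between Apoa1 and Apoa4, and Apoa5 follows, the 4 genes spanning 43.3 kb of GRCm38 (46228580 to 46271919, positions from GENCODE M21). Apoc3 is read from the minus strand and the others from the plus strand. Apoa4, which is raised by hepatic lipid and by fasting, varied widely between mice. Its WT libraries ranged from 7.88 to 8.86 log2 CPM at day 6 and its HNKO libraries from 7.60 to 8.83, and its mean difference over the 4 days was -0.12, with a 95% interval of -0.44 to 0.21. Apoa5, an activator of triglyceride lipolysis, had WT libraries of 9.82 to 10.09 and HNKO libraries of 9.28 to 10.06 log2 CPM at day 6, and its mean difference was -0.07, with an interval of -0.28 to 0.13. Of the 4 neighbours, only Apoc3 was called lower, and the difference between its change and those of the other genes was not tested. The log2 ratio of Apoc3 to Apoa1 at day 6 ranged from -2.20 to -1.92 in WT and from -2.84 to -1.94 in HNKO, which overlap.

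Apoe and Apoc1 lie on the minus strand of chromosome 7 with Apoc4 and Apoc2, the 4 genes spanning 27.6 kb (19671579 to 19699188). Apoe at day 6 had 14.52, 14.44, 13.73 and 13.80 log2 CPM in WT and 13.98, 13.92, 13.12, 13.46 and 13.52 in HNKO. The groups overlapped, and the log2 fold change of -0.53 ± 0.22 did not pass the test (adjusted p = 0.115, edgeR). Apoc1, which inhibits lipoprotein lipase and the receptor uptake of particles, had 11.87, 11.88, 11.46 and 11.56 in WT and 11.43, 11.51, 10.47, 10.99 and 11.17 in HNKO at day 6. Only HNKO library 7 reached into the WT range, and the log2 fold change was -0.55 ± 0.20 (adjusted p = 0.0617, edgeR). At day 12 the 6 HNKO libraries of Apoc1, at 10.79 to 11.27, lay below all WT libraries, at 11.33 to 11.74, with a log2 fold change of -0.37 ± 0.18 (adjusted p = 0.195, edgeR).

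Over the mean of the 4 days both genes were lower in HNKO by similar amounts. The log2 fold change was -0.37 ± 0.11 for Apoe (adjusted p = 0.00933, edgeR) and -0.37 ± 0.10 for Apoc1 (adjusted p = 0.00288, edgeR). The log2 ratio of Apoc1 to Apoe had medians between -2.54 and -2.41 in all 8 groups. Apoc4, the remaining gene of the cluster, had a log2 fold change of -0.20 in the mean (adjusted p = 0.0163, edgeR) and was called at no single day. Apoc2 had -0.32 ± 0.15 (adjusted p = 0.0982, edgeR), with the limit on its counts given above.

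The levels of Apoe and Apoc1 also differed between the runs of library numbers. In WT mice Apoe had a median of 14.23 log2 CPM in the 10 libraries of the first run and 13.71 in the 9 of the second, and it was lower in the second run at all 4 days. In HNKO mice the medians were 13.90 in 8 and 13.28 in 11 libraries, and the second run was lower at all 3 days that could be compared. Apoc1 had the same order, with medians of 11.50 and 11.37 in WT and 11.35 and 10.92 in HNKO, whereas Apoh in WT had a median of 10.99 in both runs. Within the runs, HNKO was below WT in all 7 comparisons of the same day and run for Apoa2, Apob, Apoc1, Apoc3, Apoe and Apoh. For Apoe these differences were -0.53 to -0.22 log2 CPM, and for Apoa2 -0.82 to -0.36. Each comparison had only 2 or 3 mice of each genotype, and how many other genes had this pattern was not counted. Apoa1 was also lower in the second run at all 4 days in WT and at all 3 in HNKO, with a median difference of -0.31 in both, and Apoa2 was lower at all 3 HNKO days and at 3 of 4 WT days. Within the second run at day 21 Apoa1 had a mean of 12.11 in HNKO and 11.81 in WT, a difference of 0.30, against a log2 fold change of -0.11 in the fit over both runs. That difference rests on 3 HNKO libraries and on 2 WT libraries, at 11.34 and 12.28.

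With the run as a term in the fit, Apoe and Apoc1 were called lower at day 6 as well, with log2 fold changes of -0.47 and -0.52 (adjusted p = 0.0409 and 0.028, edgeR), and Apoa2 was called at days 3 and 12 (adjusted p = 0.0476 and 0.0411, edgeR). At day 21 the same term moved the difference of Apoe from -0.38 to -0.10 and that of Apoc1 from -0.41 to -0.21, with no call in either fit. The first run held no HNKO library used at that day.

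**Figure D3:**
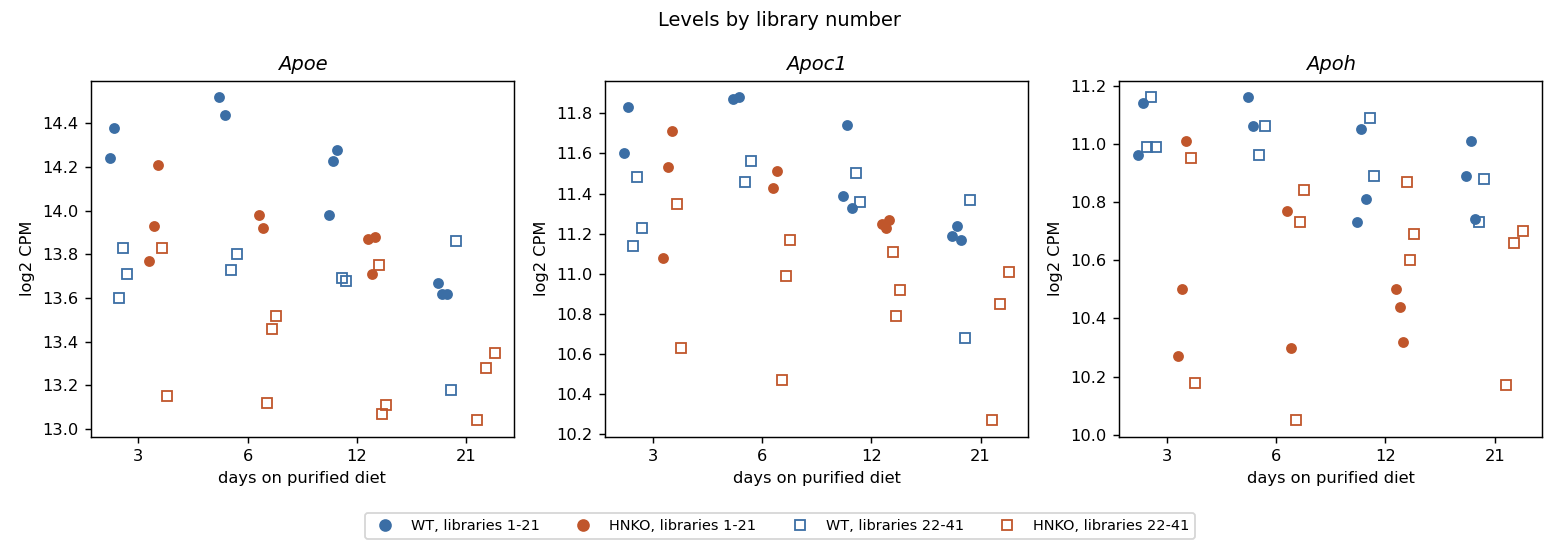
Log2 CPM of Apoe, Apoc1 and Apoh in each library by days on PD, with filled circles for libraries numbered 1 to 21 and open squares for those numbered 22 to 41, WT in blue and HNKO in orange. The vertical axes do not start at 0. The open squares of Apoe lie mostly below the filled circles of the same genotype and day, and those of Apoh do not.

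Apob, the structural protein of VLDL, had a small spread between mice, with an SD of 0.05 to 0.19 log2 CPM in the 8 groups. Its WT libraries had 14.01, 14.10, 13.95 and 14.07 log2 CPM at day 6 and its HNKO libraries 14.06, 13.90, 13.62, 13.93 and 14. The groups overlapped at all 4 days. The log2 fold changes were between -0.18 and -0.06 at single days and -0.12 ± 0.06 in the mean, with a 95% interval of -0.24 to 0.01 (adjusted p = 0.138, edgeR). Its point estimate was below 0 at all 4 days, as for 7 of the 10 genes and for 23.8% of all tested genes. With scaling by total counts alone, which moves the median log2 fold change of all genes from -0.01 to 0.19, the mean of Apob was 0.07, that of Apoa1 0.13, that of Apoa5 0.12 and that of Apoa4 0.08, none of them called, and relative to that shift all lay below the median gene.

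**Figure D4:**
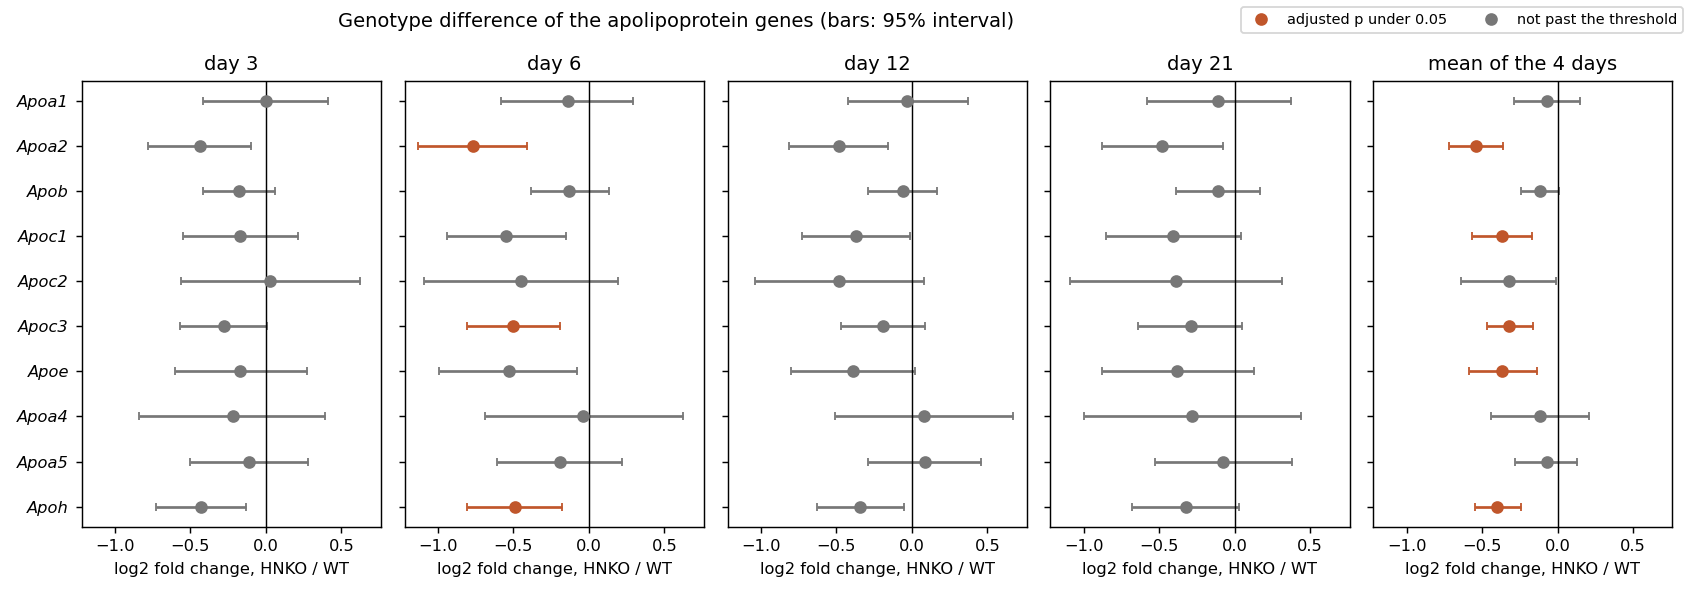
Log2 fold change of HNKO over WT with 95% intervals for the 10 genes at each day and in the mean of the 4 days. Orange marks an adjusted p under 0.05 (edgeR). Apoa2, Apoc3 and Apoh are orange at day 6, Apoc1 and Apoe are added in the mean, and no gene is orange at days 3, 12 or 21.

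The differences by day were not shown to differ from each other. No apolipoprotein gene passed edgeR's test of a genotype by day interaction, 0 had an unadjusted p under 0.05, and DESeq2 called 0. Of all tested genes 0 passed that test, 966 had an unadjusted p under 0.05, and DESeq2 called 16. At days 3, 12 and 21, where edgeR called 0 of the 10 genes, 4.66%, 7.82% and 3.12% of all tested genes were called. An unadjusted p under 0.05 was found for 2, 3 and 1 of the 10 at these days, beside 4235, 4965 and 3655 of all 20297 tested genes, and DESeq2 called Apoh at day 3, Apoa2 at day 12 and 0 at day 21. Within a genotype no apolipoprotein gene was called between day 21 and day 3, among 4.95% of tested genes called in WT and 2.43% in HNKO, nor across the 4 days, where 5.84% of tested genes were called in WT and 7.9% in HNKO, and DESeq2 also called 0 in these tests. The unadjusted p between day 21 and day 3 was under 0.05 for Apoa4 and Apoc3 in WT and for Apoc1, Apoc2, Apoc3 and Apoe in HNKO, all lower at day 21, beside 4139 and 3525 of all tested genes, and across the 4 days it was so for 0 in either genotype. All HNKO libraries used at day 21 were of the second run of numbers, and with the run as a term the HNKO difference between day 21 and day 3 moved from -0.59 to -0.28 for Apoe and from -0.56 to -0.35 for Apoc1 (adjusted p = 0.511 and 0.385, edgeR).

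The apolipoprotein genes did not vary from mouse to mouse as 1 set. Over deviations from group means in 38 libraries, Pearson's r was 0.86 between Apoe and Apoc1, 0.79 between Apoa2 and Apoe and 0.78 between Apoa2 and Apoc1. A second set held Apob and Apoh, with r = 0.71, Apoc3 and Apoh, with r = 0.68, and Apob and Apoc3, with r = 0.67. The sets were not separate, since r was 0.64 between Apoa2 and Apoh, 0.57 between Apoc1 and Apoc3 and 0.56 between Apoc1 and Apoh. Apoa1 had r = 0.62 with Apoe and -0.11 with Apob. Among neighbours on chromosome 9, r was 0.05 between Apoc3 and Apoa1 and 0.50 between Apoc3 and Apoa5. These libraries share their scaling and the runs of library numbers, in which Apoe and Apoc1 moved together, so the values describe these libraries only.

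**Figure D5:**
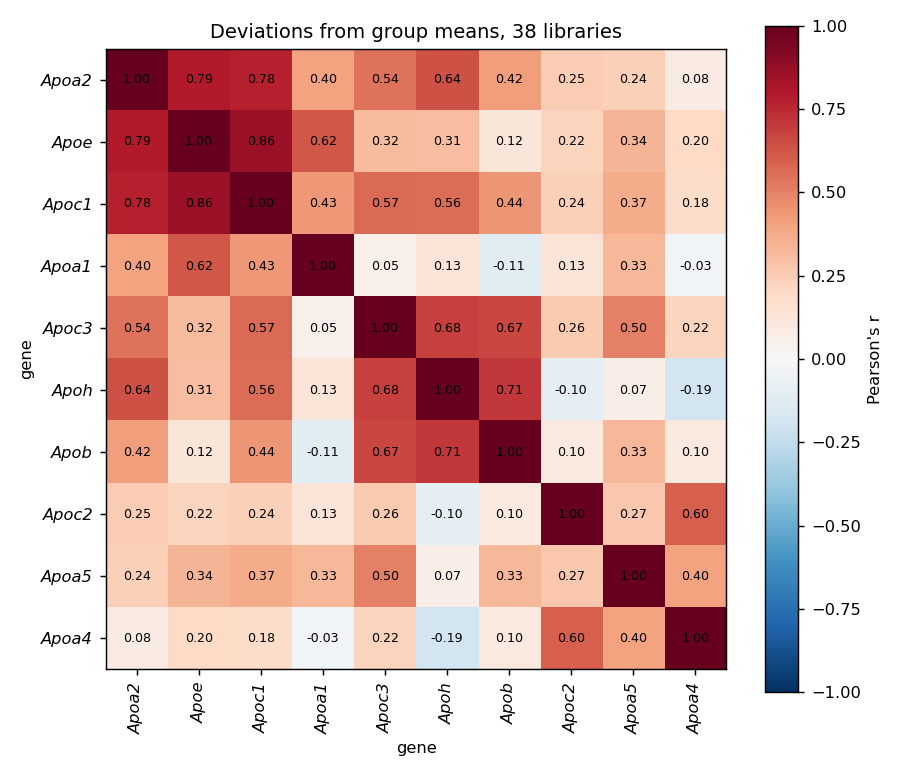
Pearson's r between the log2 CPM of each pair of the 10 genes, as deviations from group means over 38 libraries, from blue (-1) to red (1). Apoa2, Apoe and Apoc1 form 1 block, with r of 0.78 to 0.86, and Apoc3, Apoh and Apob another, with r of 0.67 to 0.71.

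By the same measure the genes outside the list that varied most like Apoa2 were Gstz1 (r = 0.92), Cat (r = 0.92), which encodes catalase, and Urah (r = 0.91). For Apoh they were Amy1, Slc27a5, a bile acid and fatty acid CoA ligase, and Pex7, a receptor of peroxisomal import, with r of 0.91 to 0.92. For Apoc3 they were Pemt, which makes phosphatidylcholine (r = 0.87), Apof and Coasy (r = 0.82 for both).

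Other genes of the lipoprotein pathway were counted over lists of fixed membership. Of 15 genes for the assembly and secretion of VLDL, 5 were called lower and 0 higher at day 6, and 9 lower and 3 higher in the mean of the 4 days, with a median log2 fold change of -0.25, against -0.01 over all tested genes. Of all tested genes 4.37% were lower at day 6, and 17.3% were lower and 19.2% higher in the mean, which is the background of the mean for each list that follows. Mttp, which loads lipid onto Apob, fell by 0.56 ± 0.17 at day 6 and by 0.62 ± 0.15 at day 12 on the log2 scale (adjusted p = 0.0222 and 0.0103, edgeR). Sar1b, a GTPase of the vesicles that carry the particles, and A1cf, a cofactor of Apob mRNA editing, were called lower at the same days. Dgat2, which makes triglyceride, was called lower at days 3 and 6, and Mia2, a receptor of the export sites, at day 6. Sort1, Vmp1 and Apobec1, the editing enzyme of Apob mRNA, were the 3 higher genes of the mean, with log2 fold changes of 0.29, 0.22 and 0.28.

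Of 7 genes of HDL formation and remodelling, 3 were lower and 1 higher in the mean. Lipc, hepatic lipase, was lower at day 6 (-0.56 ± 0.18, adjusted p = 0.0379, edgeR), and Abcg1, a cholesterol exporter, was higher at days 6 and 12 (0.39 ± 0.11 and 0.37 ± 0.10, adjusted p = 0.0168 and 0.0192, edgeR). Abca1, which lipidates Apoa1, had a log2 fold change of -0.04 in the mean (adjusted p = 0.649, edgeR). Of 14 genes of receptors and lipolysis, 6 were lower and 4 higher. Vldlr, a receptor of triglyceride-rich particles, was lower at day 6 (-1.23 ± 0.31), and Lpl, lipoprotein lipase, was higher at days 6 and 12 (1.09 ± 0.30 and 0.92 ± 0.27). The receptors Lrp8 and Sorl1 were also higher, Lrp8 at days 3 and 6 and Sorl1 at day 6.

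Of the 4 serum amyloid A genes, whose acute-phase forms join HDL, 3 were higher in the mean of the 4 days. Saa1 and Saa2 were called higher at days 3, 6 and 12 and Saa3 at days 6 and 12, and none of the 4 was called at day 21, where the log2 fold changes were -0.45 to 1.45. At day 6 the log2 fold changes were 5.66 ± 0.67 for Saa1, 6.03 ± 0.69 for Saa2 and 4.11 ± 0.53 for Saa3. Saa1 and Saa2 are close copies of each other, so their counts may not be fully separate. Saa4, the constitutive form, was called at no day. Of 6 other apolipoproteins, Clu, or apolipoprotein J, was higher at day 6 (0.86 ± 0.22, adjusted p = 0.00842, edgeR), and Apod, Apof, Apom and Apon were called at no day and not in the mean.

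Of 20 transcription factors known to act on apolipoprotein genes, 13 were lower and 1 higher in the mean of the 4 days, beside 17.3% and 19.2% of all tested genes, with a median log2 fold change of -0.20. Hnf4a, which acts on most of the genes described here, had -0.17 (adjusted p = 0.0812, edgeR). Ppara and Cebpa were called lower at day 3 (-0.64 ± 0.18 and -0.57 ± 0.15, adjusted p = 0.0374 and 0.0282, edgeR), and Ppargc1a at day 6 (-0.61 ± 0.19, adjusted p = 0.0296, edgeR). Of 8 genes raised by fasting or lipid load, 3 were lower in the mean and 0 higher. Cyp4a14 had the largest change of this list at day 6, -2.97 ± 0.62 (adjusted p = 0.00162, edgeR), and Mogat1 was lower at days 6 and 21. Of 12 clock genes, Cry1 alone was called, at days 6 and 12 and in the mean.

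Markers of several liver cell types also moved with genotype. Of 8 hepatocyte markers, Alb, Ttr and Asgr1 were lower in the mean of the 4 days and 0 were higher, with a median log2 fold change of -0.23. All 8 had WT medians of 8.8 log2 CPM or more. Of the 447 tested genes with a median of 8 or more log2 CPM, 56.2% were called lower in the mean, with a median of -0.26. Alb and Ttr were called at day 6, with -0.67 ± 0.18 and -0.64 ± 0.18. Trf (0.23 ± 0.18) and Fgb (0.56 ± 0.20) were above 0 at that day without a call, and the other markers were below 0. All 6 cholangiocyte markers, 7 of 9 stellate cell and fibroblast markers and 7 of 10 macrophage markers were higher in the mean, beside 19.2% of all tested genes. Reln, on the stellate list, was lower in the mean and at day 12 (-0.40 ± 0.11, adjusted p = 0.0207, edgeR), and of 5 endothelial markers Kdr was lower and 0 were higher. The summed level of the hepatocyte markers at day 6 was 121000 to 124000 CPM in WT and 80600 to 111000 in HNKO, that of the cholangiocyte markers was 30.5 to 44.7 and 156 to 932, that of the stellate cell and fibroblast markers was 470 to 526 and 643 to 1630, and that of the macrophage markers was 608 to 804 and 847 to 1350. The hepatocyte sum in WT was mostly Alb, with a WT median of 16.53 log2 CPM, the next marker being Ahsg with 13.36. The cholangiocyte sum in WT was mostly Spp1, with 5.22, the next being Sox9 with 1.61. These sums therefore mainly follow Alb and Spp1 and are not even measures of all markers of a list. None of these marker genes was at 0 in any whole group. In whole liver, fewer hepatocytes and less mRNA per hepatocyte cannot be told apart, and the part of the other cell types in the apolipoprotein values was not tested.

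The HNKO library with the lowest hepatocyte sum at day 6 was library 29, which was also highest at that day for the sums of cholangiocyte (932), stellate cell and fibroblast (1630) and macrophage markers (1350). It had the lowest HNKO value of day 6 for Apoa2, Apob, Apoa5, Apoc1, Apoc3, Apoe and Apoh, but not for Apoa1 or Apoa4. Library 23 had the lowest hepatocyte sum of HNKO at day 3 and the lowest values of Apoa2, Apoc1, Apoc3, Apoe and Apoh. Library 37 was lowest at day 21 for the same 5 genes and highest there for the sums of cholangiocyte (593) and stellate cell and fibroblast markers (1510), whereas library 40 had the lowest hepatocyte sum (101000, against 102000 in library 37). At day 12, in contrast, HNKO libraries 35 and 36 had the highest hepatocyte sums, 119000 and 125000, and the lowest values of Apoa2, Apoc1 and Apoe. Without library 29 the difference of Apoa2 at day 6 remained past the threshold, and those of Apoc3 and Apoh did not, as given above.

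Of 7 gut and pancreas markers 4 were tested, and Alpi, an intestinal alkaline phosphatase, had 0 counts in every group. Of those tested, Vil1, Cpa1 and Ctrb1 had WT medians of -1.35, -3.8 and -3.8 log2 CPM. Fabp2, the intestinal fatty acid binding protein, had a median of 5.73 log2 CPM in WT and was lower in HNKO at days 3 and 6 (-0.78 ± 0.20 and -0.67 ± 0.21, adjusted p = 0.02 and 0.0277, edgeR). Vil1 was higher at day 12 and in the mean, and Ctrb1 was called at day 12, from counts of 0 in all WT libraries of that day.

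The 2 HNKO libraries that failed quality control, scaled together with the other libraries, had Apoa2 levels of 11.61 and 11.20 log2 CPM. Both lay below the WT range of day 21, 11.84 to 12.06, and within the range of the 3 HNKO libraries used, 11.15 to 11.73. Apoh, at 10.64 and 10.31, was likewise below the WT range of 10.74 to 11.02. Apoa1, at 12.10 and 11.66, was within its WT range of 11.36 to 12.58. Apoa4, at 6.83 and 7.19, was below every used library of either genotype at that day. With these 2 libraries in the fit, Apoa4, Apoc1 and Apoc2 were called lower in HNKO at day 21 than at day 3, with log2 fold changes of -0.97, -0.59 and -1.26 (adjusted p = 0.042, 0.0389 and 0.0467, edgeR), of which Apoc2 rests on 0 and 14 counts in these libraries.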

How the data were processed

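Liver RNA depleted of rRNA was sequenced with 51-bp paired-end reads in 40 libraries. Per the submitters' notes and methods, STAR 2.7.2b was run against GRCm38, and the authors counted fragments with both ends aligned on GENCODE M22 genes with featureCounts 1.6.4, and deposited raw counts per gene, not normalized. Positions and exon lengths were taken from GENCODE M21, which gave symbols for 55394 of the 55487 genes. Libraries 17 and 18 were left out of the main fit, as in the study.

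Genes with low counts were removed with edgeR's filter (minimum count 10, minimum total count 15, minimum proportion 0.7), the others were scaled by TMM, and 1 mean per genotype and day was fitted (edgeR 4.0.16, quasi-likelihood test, R 4.3.3), with Benjamini-Hochberg adjustment over 20297 genes. The mean of the 4 days weights the days equally. Levels are log2 CPM with a prior count of 2, fold changes come from the fit, and standard errors are those implied by the test statistic. The tests were checked on simulated data. No pair of libraries in a group agreed within sampling noise. Libraries held 16151037 to 64181492 counts. Of the 10 genes Apoc2 had few counts, and so had some genes of the other lists, among them Mogat1, Lrp8, Vil1, Apod and Ctrb1, whose values carry more counting error.

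All 10 members were named; of the other lists, genes called at a day were named, at most 5 per list by p in the mean, the genes most like a member were named for members called at 1 day or more, and others named were chosen after their values were seen. Some genes of these lists are not reported here by name. The members and lists were chosen with earlier results of these data known. Alternatives tried were DESeq2 1.42.0, its size factors within edgeR, scaling by total counts, no filter beyond 1 count, all 40 libraries, the 2 groups compared alone, a term for the run of library numbers, and leave-one-out fits. In DESeq2's tests over several days, genes whose fit did not converge had no p-value.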

Additional observations from a re-analysis of the deposited data

Results flagged for a closer look

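In 5 of the 70 groups of 4 to 6 libraries examined, 7 groups for each of the 10 genes, 1 library stood apart from the others of its group by the gap to its neighbour, and chance alone gives about 1 in 20 such groups. Apoa5 in HNKO library 35 of day 12 had 8.74 log2 CPM, against 9.93 to 10.27 in the other 5, and Apoa5 in HNKO library 4 of day 3 had 9.17, against 9.76 to 9.92. Apoa2 in WT library 5 of day 3 had 12.6, against 12.13 to 12.25. Apoc1 in WT library 39 of day 21 had 10.68, against 11.17 to 11.37. Apoc2 in WT library 27 of day 6 had 1.67, against 1.22 to 1.28, a gene with a median of 64 counts that shares most of its sequence with Gm44805. The HNKO group of day 21, with 3 libraries, was not examined. The causes were not tested.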

How the results depend on the processing

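Over the mean of the 4 days, the 5 calls among the apolipoprotein genes were kept in 38 of 38 fits that left out 1 library, and in the alternatives other than scaling by total counts, where 3 were called. In the other comparisons the number of these genes called changed as follows. At day 3 it was 1 with DESeq2 and 1 with the run as a term. At day 6 it was 4 with DESeq2, which added Apoc1 (adjusted p = 0.041), 1 with total counts, 1 without the filter, 5 with the run as a term and 0 with the 2 groups alone, where Apoa2 had an adjusted p of 0.0761. At day 12 it was 1 with DESeq2, with the run as a term and with the 2 groups alone. With all 40 libraries it was 3 for HNKO at day 21 against day 3. No call changed direction in any alternative. The causes of these changes were not tested.

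Genes called among all those tested moved by over 1.5 times in these cases. At day 3 they were 1792 with total counts, 1428 with DESeq2, 331 with all 40 libraries and 420 with the 2 groups alone. At day 6 they were 1321 with all 40 libraries and 1325 with the 2 groups, and at day 12 they were 624 and 867. At day 21 they were 1212 with total counts, 994 with DESeq2 and 1350 with all 40 libraries. DESeq2 called 16 for the interaction. For day 21 against day 3 in WT they were 597 without the filter, 480 with all 40 libraries and 2002 with the run as a term, and in HNKO 950 with DESeq2, 245 without the filter, 1729 with all 40 libraries and 184 with the 2 groups. Across the days in WT they were 1886 with DESeq2, 581 with all 40 libraries and 2224 with the run as a term.

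When 1 library was left out, the genes called ranged from 322 (without HNKO library 23) to 1668 (without HNKO library 22) at day 3, from 1126 (without HNKO library 29) to 3027 at day 6, from 852 (without WT library 15) to 1750 at day 12, from 13 (without HNKO library 37) to 718 at day 21, from 5954 to 7581 in the mean and from 0 to 3 for the interaction. For day 21 against day 3 they ranged from 546 to 974 in WT and from 47 to 537 in HNKO, and across the days from 811 to 1385 in WT and from 1183 to 1603 in HNKO. Moves by over 1.5 times came without WT library 5, 24 or 25 or HNKO library 2, 3, 4, 22 or 23 at day 3, WT library 8 or 10 or HNKO library 29 at day 6, WT library 15 or 33 or HNKO library 13 at day 12, and WT library 19, 20, 21 or 41 or HNKO library 37 at day 21, and for day 21 against day 3 without WT library 19 or 39 or HNKO library 3, 4, 37, 38 or 40. The apolipoprotein genes called ranged from 0 to 1 at day 3, from 1 to 4 at day 6 and from 5 to 6 in the mean, and were 0 in the others. Apoh was gained at day 3 without HNKO library 4 or 22, Apoc1 at day 6 without HNKO library 6 or 7, and Apoc2 in the mean without HNKO library 3 or 6. No paired analysis was possible because each library number occurs once in the series. Low counts limit the values of Apoc2, and the number of mice, 3 to 6 in a group, limits all.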
